A study of Arabidopsis thaliana with 12 samples.

Results

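The 41 cysteine-rich receptor-like kinase (CRK) genes of Arabidopsis thaliana were followed through 12 RNA sequencing libraries of whole seedlings, 10 days old. They were taken as a family by gene identifier, and comprise CRK1 to CRK34 and CRK36 to CRK42, but not CRK35 or CRK43 to CRK46. The first experiment had 1 library for each of 4 combinations: wild type given sterile water (WT_mock), wild type given 100 nM flg22 (WT_flg22), and the cerk1-/- mutant given the same (cerk1_mock and cerk1_flg22). Flg22 is a peptide of bacterial flagellin that the receptor kinase FLS2 perceives, and CERK1 is the LysM receptor kinase needed for chitin perception. The second experiment had 2 libraries for each of 4 untreated lines, all in the cerk1 background with CERK1 put back as a FLAG fusion driven by its own promoter (pCERK1), either of wild-type sequence (CERK1_WT) or in the forms 3A, 3D and 3E (CERK1_3A, CERK1_3D and CERK1_3E). The library titled cerk1+flg22 has cerk2-/- as its genotype label, and its title was followed. The labels do not state how long flg22 was applied, which residues differ in the 3 forms, or how many transformants a construct stands for, so construct and line cannot be told apart. Whether the 2 libraries of a line were grown separately is not stated either, and p-values therefore measure spread that may be technical, between these samples and no others.

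A typical CRK protein has an extracellular region of cysteine-rich DUF26 repeats, a single membrane span and a cytoplasmic serine/threonine kinase, although CRK9 (EP1) lacks the kinase. Many CRK transcripts are known to accumulate after pathogen contact, salicylic acid or oxidative stress, and several CRK proteins work with the pattern receptors: CRK2 phosphorylates and activates the NADPH oxidase RBOHD, and CRK4, CRK6, CRK28, CRK29 and CRK36 have been linked to the FLS2 complex or to stronger flg22 responses when overproduced. Much of the family arose by tandem duplication. In the TAIR10.1 annotation 36 of the 41 genes lie on chromosome 4, and 20 of them, CRK5 to CRK24 (AT4G23130 to AT4G23320), form a row that holds 1 other protein-coding gene and runs partly on each strand, with 9 of the 20 on the plus strand.

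The sequence in front of the genes differed widely in 1 regulatory motif. A promoter was taken as the 250 bases before and the first 50 bases after the annotated start, and TTGAC, the core of the W box that WRKY transcription factors bind, was counted on both strands (GTCAA on the opposite strand), with neighbouring and overlapping copies each counted. At least 1 copy stood in 31 of the 41 CRK promoters (75.6%), against 50.4% of 27561 protein-coding promoters, and at least 3 copies stood in 9 (22%), against 4.84%. Shown here are the promoters of the 3 genes with at least 4 copies, CRK41, CRK31 and CRK11, all with much higher counts after flg22. Beside them are the divergent neighbours CRK21 and CRK22, chosen as genes of the row with 0 copies and lower counts after flg22 in wild type. The choice itself thus set the contrast in copies between the promoters shown. They are RefSeq TAIR10.1 sequences, 5′ to 3′ on the strand of the gene, with each TTGAC or GTCAA in capitals. CRK41 (AT4G00970) is at chr4:418077-418376 on the plus strand, CRK31 (AT4G11470) at chr4:6967459-6967758 on the plus strand, CRK11 (AT4G23190) at chr4:12143809-12144108 on the minus strand, CRK21 (AT4G23290) at chr4:12180887-12181186 on the minus strand and CRK22 (AT4G23300) at chr4:12181375-12181674 on the plus strand.
CRK41: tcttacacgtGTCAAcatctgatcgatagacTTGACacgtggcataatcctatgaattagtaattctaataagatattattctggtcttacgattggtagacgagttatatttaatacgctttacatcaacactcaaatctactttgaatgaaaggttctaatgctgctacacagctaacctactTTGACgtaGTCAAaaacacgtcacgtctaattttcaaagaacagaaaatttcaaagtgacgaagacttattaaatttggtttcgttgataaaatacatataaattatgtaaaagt
CRK31: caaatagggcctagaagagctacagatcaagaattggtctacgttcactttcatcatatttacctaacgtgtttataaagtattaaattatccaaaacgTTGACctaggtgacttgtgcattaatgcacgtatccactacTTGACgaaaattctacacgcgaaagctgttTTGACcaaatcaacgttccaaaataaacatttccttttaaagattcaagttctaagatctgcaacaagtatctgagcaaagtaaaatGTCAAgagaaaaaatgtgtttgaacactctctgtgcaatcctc
CRK11: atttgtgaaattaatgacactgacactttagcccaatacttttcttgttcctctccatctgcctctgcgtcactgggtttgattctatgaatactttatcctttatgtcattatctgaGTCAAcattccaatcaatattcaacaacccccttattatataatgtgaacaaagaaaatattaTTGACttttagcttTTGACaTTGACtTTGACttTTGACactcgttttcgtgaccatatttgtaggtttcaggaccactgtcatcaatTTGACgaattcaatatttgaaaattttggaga
CRK21: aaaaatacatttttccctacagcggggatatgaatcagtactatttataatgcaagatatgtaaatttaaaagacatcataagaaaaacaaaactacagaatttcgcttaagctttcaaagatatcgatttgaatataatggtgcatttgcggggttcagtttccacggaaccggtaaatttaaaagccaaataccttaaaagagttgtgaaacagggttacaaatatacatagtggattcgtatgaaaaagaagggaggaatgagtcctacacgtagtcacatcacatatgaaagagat
CRK22: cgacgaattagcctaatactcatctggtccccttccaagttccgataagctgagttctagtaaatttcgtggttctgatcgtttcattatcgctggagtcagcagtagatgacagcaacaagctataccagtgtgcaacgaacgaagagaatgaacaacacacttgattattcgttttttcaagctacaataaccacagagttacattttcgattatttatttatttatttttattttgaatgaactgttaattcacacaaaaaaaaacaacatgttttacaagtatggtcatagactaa
The CRK11 window holds 7 copies, 4 of them packed into a short stretch, and the CRK41 and CRK31 windows hold 4 each. The windows of CRK21 and CRK22 hold 0.

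Measured depth set what could be said. The flg22 experiment had 18159354 to 22663236 counts per library and the lines 36013439 to 41288819. Levels are given as CPM, counts scaled to a common library size, with TMM factors within each experiment, and no level is compared between experiments. Of the 41 genes, 37 were listed in the flg22 experiment, and CRK1 (AT1G19090), CRK16 (AT4G23240), CRK28 (AT4G21400) and CRK33 (AT4G11490) were not in that table. CRK23 and CRK37 were listed but stayed under 1 CPM in all 4 libraries, which left 35 genes. In the lines CRK1, CRK28 and CRK33 had 0 counts in all 8 libraries, CRK16 had 1 count in 1 library, and CRK8, CRK31 and CRK32 also stayed under 1 CPM, which left 34 genes at 1 CPM or more. The floor used for a count of 0, 3 counts in that library, corresponds to 0.150 to 0.151 CPM in the flg22 experiment and 0.0709 to 0.0829 CPM in the lines, and floors and intervals cover counting error only. The mutated gene itself, CERK1, was at 24.9 CPM in wild type and 9.70 in cerk1 under mock, and at 273 and 119 CPM under flg22. It was therefore lower in both libraries labelled cerk1 than in the wild-type library of the same treatment, but not absent.

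The gene models behind the counts limit some rows. The stated gene length exceeded 1.2 times the annotated exon length for 5 listed CRK genes in the flg22 experiment (CRK2, CRK17, CRK27, CRK29, CRK34) and for 17 of 41 in the lines. Those 17 were CRK5, CRK6, CRK7, CRK11, CRK12, CRK13, CRK17, CRK18, CRK19, CRK20, CRK21, CRK22, CRK29, CRK30, CRK34, CRK40 and CRK42. In the lines the row of CRK29 (AT4G21410) has a stated length of 53177 bases, 17.3 times its annotated exons, and that of CRK17 (AT4G23250) 38466 bases, 12.4 times. CRK28 overlaps CRK29 on the same strand, and CRK16 overlaps CRK17 on the same strand; in both pairs the first was not listed or had next to no counts, so the counts of the partners cannot be told apart. CRK10 and CRK11 overlap on opposite strands, and the strand setting of the counting is not given in the sources used here. Shared sequence also limits some rows. Of the 41 genes, 24 had under 1% of their exonic 50-base stretches elsewhere in the genome, while CRK6 had 22%, CRK8 16.5%, CRK22 16.2% and CRK13 15.4%, and the counts of these 4 are uncertain to that extent.

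**Figure D1:**
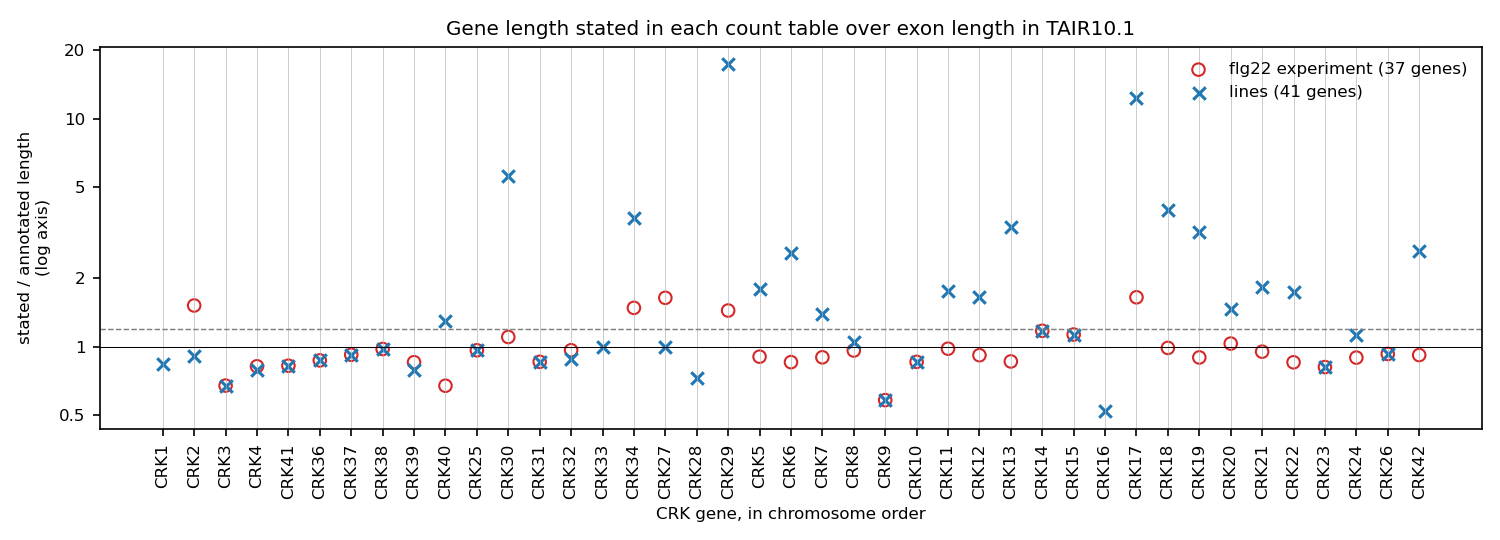
Gene length stated in each count table divided by the exon length in TAIR10.1 (log axis), for 37 CRK genes in the flg22 experiment (circles) and 41 in the lines (crosses), in chromosome order; the dashed line marks 1.2. CRK29 and CRK17 stand far above the others in the lines, at 17.3 and 12.4.

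Before treatment the listed CRK genes together held 386 CPM in WT_mock and 350 CPM in cerk1_mock. Per kb of stated length, and leaving out the 5 genes whose models were over-long, the highest in WT_mock were CRK40 with 16.8 CPM per kb, CRK18 with 16.5, CRK19 with 16.2, CRK22 with 12.9, CRK30 with 12.5 and CRK21 with 11.6. With 1 library per combination, the order of such close neighbours has no replicate check. At the other end, CRK7, CRK31, CRK37, CRK38 and CRK39 had 0 counts in both mock libraries. After flg22 the sum was 3204 CPM in wild type, 8.30 times the mock value, and 2511 CPM in cerk1, 7.18 times. The order per kb was then headed in WT_flg22 by CRK11 with 194 CPM per kb, CRK19 with 168, CRK10 with 113, CRK3 with 108 and CRK9 with 103. CRK19 is the 1 gene in the first 5 of both wild-type lists. Stated lengths shorter than the annotated exons were kept, at 0.675 of them for CRK40, 0.676 for CRK3 and 0.584 for CRK9. The values per kb of these genes are therefore higher than on annotated length, and the order depends on the length used. In bulk seedlings, a change in the share of cells of a type cannot be told apart from a change in RNA per cell.

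**Figure D2:**
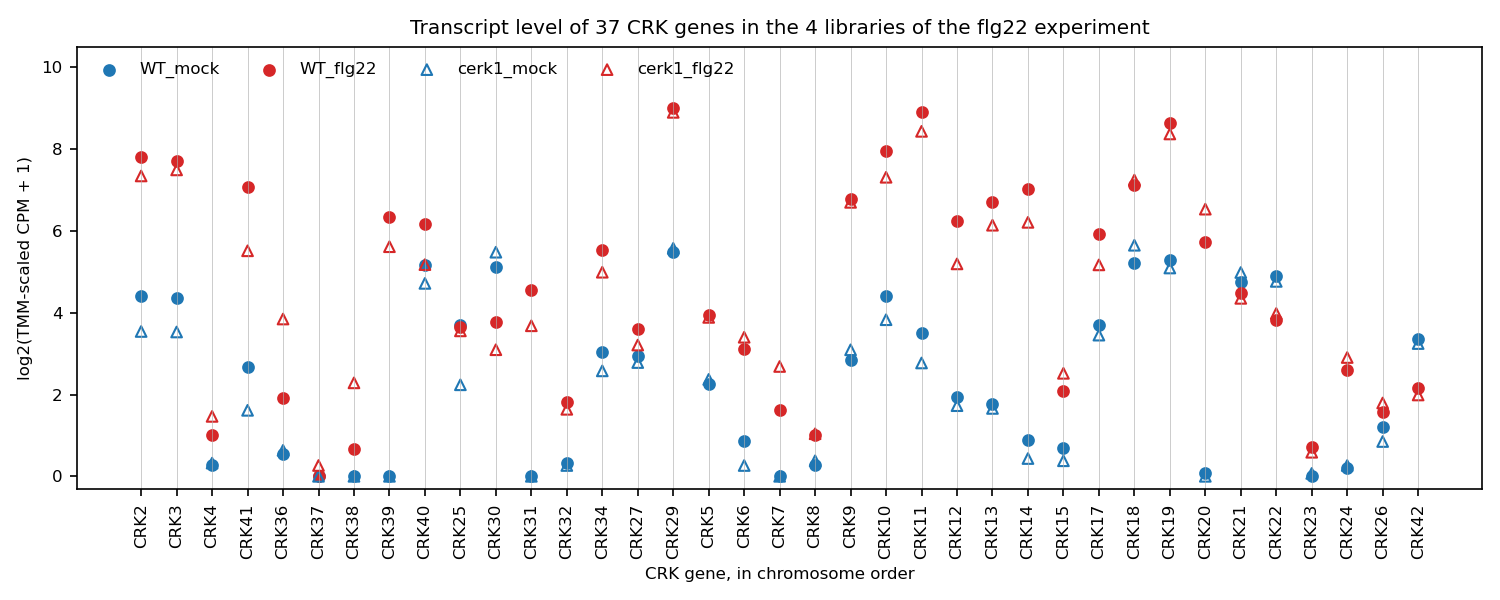
Level of each listed CRK gene, as log2(TMM-scaled CPM + 1), in WT_mock and WT_flg22 (filled circles) and cerk1_mock and cerk1_flg22 (open triangles), 1 library each, in chromosome order. Both flg22 libraries sit above both mock libraries for most genes, and below them for CRK21, CRK22, CRK30 and CRK42.

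The flg22 comparison asked how the family responded to a bacterial pattern in wild type and in the libraries labelled cerk1, in which CERK1 counts remained. At least 4-fold higher on CPM + 1 were 18 of the 41 genes in wild type (43.9%), where 6.28% of the 18872 genes with 1 CPM in any library were, and 21 in cerk1 (51.2%), where 6.82% were. Over the 37 listed CRK genes the median log2 ratio was 1.91 (wild type) and 2.41 (cerk1), and over all listed genes -0.01 and 0.00. Of the 35 genes, 13 reached 1 CPM only because of a flg22 library and so had to be higher there. Among the 22 with 1 CPM or more in a mock library, 12 were at least 4-fold higher in wild type and 11 in cerk1. The share over all genes with 1 CPM in a mock library was not computed. The 6.28% and 6.82% above are over genes kept through any library, flg22 libraries included, and are not a like background for the 22. The 2 lists shared 17 genes, 94.4% of the wild-type list and 81.0% of the cerk1 list. CRK17 passed 4-fold in wild type alone, at 4.95-fold against 3.52-fold in cerk1, but missed it with library totals as the sole scaling or with CPM + 5. CRK7, CRK15, CRK36 and CRK38 passed in cerk1 alone and fell short of 4-fold there with CPM + 5. For these scarce genes the wild-type result depends on the value added. By plain ratio of scaled counts CRK15 was 5.38-fold higher in wild type (95% interval 2.88 to 10.95) and CRK36 6.07-fold (2.98 to 14.0). CRK7 was at least 13.9-fold higher there and CRK38 at least 3.97-fold. Apart from counts of genes past a fold, which use CPM + 1 throughout, each fold given from here on is a plain ratio of scaled counts, with its 95% exact binomial interval in brackets where given, and no p-value was computed with 1 library per combination.

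Of the genes with a known link to the FLS2 complex or RBOHD, CRK2 (AT1G70520), the RBOHD-activating kinase, had levels of 20.3, 224, 10.7 and 162 CPM, given here and for later genes in the order WT_mock, WT_flg22, cerk1_mock, cerk1_flg22. Both flg22 libraries were well above both mock libraries, 11.1-fold in wild type (9.97 to 12.3) and, in cerk1, 15.2-fold (13.2 to 17.5). Its neighbour CRK3 (AT1G70530) had nearly the same values, 19.7, 210, 10.6 and 179 CPM, and was 10.7-fold higher in wild type and 17.0-fold in cerk1. In this pair cerk1_mock was the lowest library, and it was lower than WT_mock by a ratio of 0.526 for CRK2 (0.443 to 0.622) and 0.537 for CRK3. CRK29, whose product interacts with that of CRK28, was at 44.2, 511, 46.7 and 477 CPM. It was 11.6-fold higher in wild type (10.8 to 12.4) and, in cerk1, 10.2-fold, and the share of CRK28 in this row cannot be told apart.

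The other genes linked to flg22 signalling were scarce. CRK4 (AT3G45860) had 4, 20, 5 and 35 counts, at most 1.76 CPM, and its ratio of 4.97 in wild type had an interval from 1.66 to 20.0. CRK6 (AT4G23140), known with CRK7 from responses to extracellular reactive oxygen, was at 0.807, 7.66, 0.201 and 9.56 CPM, 9.50-fold higher in wild type (5.67 to 17.0). Its ratio in cerk1 was 47.6 (18.3 to 176), from 4 counts in the mock library. CRK7 (AT4G23150) had 0 counts in both mock libraries, 42 in WT_flg22 and 108 in cerk1_flg22, so it was at least 13.9-fold and at least 36.1-fold higher. CRK36 (AT4G04490), which acts with the DUF26 kinase ARCK1 in abscisic acid and osmotic stress responses, was at 0.454, 2.75, 0.553 and 13.4 CPM. It was 6.07-fold higher in wild type (2.98 to 14.0) and, in cerk1, 24.2-fold (13.3 to 49.1), and the cerk1_flg22 library stood clear of the other 3.

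Genes high after flg22 lay both in and outside the CRK5 to CRK24 row. Of its 20 genes, 19 were listed and 18 reached 1 CPM, and 11 (55%) were at least 4-fold higher on CPM + 1 in wild type and 12 (60%) in cerk1, against 7 (33.3%) and 9 (42.9%) of the 21 genes outside it and 6.28% and 6.82% of all genes. Both sides include genes that reached 1 CPM only through a flg22 library and so had to be higher there. In wild type these were CRK6, CRK14, CRK20 and CRK24 in the row, and CRK31 and CRK39 outside it. In cerk1, CRK7 and CRK15 in the row and CRK36 and CRK38 outside it joined them. The difference between the row and the other members was not tested. The median log2 ratio over the 19 listed was 2.26 in wild type, and 2.69 in cerk1. CRK11, an early-described salicylic acid and pathogen responsive kinase gene (RLK3) whose promoter is shown above, was at 10.4, 480, 5.83 and 346 CPM. That was 46.2-fold higher in wild type (40.3 to 53.3) and, in cerk1, 59.3-fold (49.3 to 71.9). The adjoining CRK10 (AT4G23180, RLK4) was at 20.3, 247, 13.2 and 158 CPM, 12.2-fold and 11.96-fold higher. For both genes cerk1 was lower than wild type in each treatment, by ratios between 0.561 and 0.720, and the flg22 libraries lay far above the mock libraries.

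The strongest ratios in the row belonged to genes that were nearly silent without flg22. CRK20 (AT4G23280), a pathogen-inducible member, had 1, 1035, 0 and 1821 counts, so nearly all of its counts came from the flg22 libraries. The ratio of 1028 in wild type rests on that single count (184 to 40650), and in cerk1 the gene was at least 608-fold higher. CRK14 (AT4G23220) was at 0.857, 129, 0.352 and 73.1 CPM, 150-fold higher in wild type (93.7 to 259) and, in cerk1, 208-fold (101 to 518). CRK20 was thus higher in cerk1_flg22 than in WT_flg22, by 1.77-fold (1.64 to 1.91), whereas CRK14 was lower by a ratio of 0.567 (0.532 to 0.605).

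CRK13 (AT4G23210), whose overproduction triggers defence-linked cell death, was at 2.42, 104, 2.16 and 69.6 CPM. It was 42.8-fold higher in wild type (32.2 to 58.2) and, in cerk1, 32.2-fold (23.8 to 44.7), with 0 copies of TTGAC in its promoter window. CRK12 (AT4G23200), the gene before it, was at 2.82, 74.5, 2.31 and 35.6 CPM, 26.4-fold and 15.4-fold higher. CRK9 (AT4G23170), the member without a kinase, was at 6.20, 110, 7.54 and 103 CPM, 17.7-fold higher in wild type (14.8 to 21.4) and, in cerk1, 13.7-fold. CRK19 (AT4G23270), among the highest per kb already in mock, was 10.4-fold higher in wild type and 9.96-fold in cerk1. CRK5 (AT4G23130), known from abscisic acid and cell death responses, had smaller ratios of 3.82 (2.95 to 4.99) and 3.31, at 3.78, 14.4, 4.17 and 13.8 CPM.

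The neighbours CRK21 and CRK22, near the end of the row, were lower after flg22. CRK22 was at 28.8, 13.2, 26.2 and 14.8 CPM, 2.18-fold lower after flg22 in wild type (1.88 to 2.53) and 1.77-fold lower in cerk1 (1.53 to 2.05). CRK21, its divergent neighbour, was at 26.1, 21.4, 30.7 and 19.4 CPM, 1.22-fold lower in wild type (1.07 to 1.39) and 1.58-fold lower in cerk1 (1.39 to 1.80). For both, each flg22 library was below both mock libraries. CRK20, on the far side of CRK21, was far higher after flg22, so neighbours in the row had opposite directions. CRK23 next to them had at most 13 counts in a library, and CRK24 (AT4G23320) was 33.8-fold higher in wild type, from 3 counts (11.2 to 167).

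Outside the row, the members at least 2-fold lower were CRK30 and CRK42 in both genotypes, so that 3 genes in wild type and 2 in cerk1 were at least 2-fold lower, where 5.79% and 5.38% of all genes were. CRK30 (AT4G11460) was at 34.0, 12.7, 43.7 and 7.55 CPM. It was 2.67-fold lower in wild type (2.31 to 3.10) and 5.78-fold lower in cerk1 (4.86 to 6.93). It was the 1 member at least 4-fold lower on CPM + 1 in cerk1, where 0.466% of genes were, and 0 members were in wild type (0.472%). CRK42 (AT5G40380) was at 9.33, 3.51, 8.49 and 2.97 CPM, 2.66-fold lower in wild type (2.01 to 3.56) and, in cerk1, 2.86-fold. The next gene to CRK30 had the opposite direction: CRK31 had 0, 447, 0 and 235 counts and was at least 148-fold higher in wild type and at least 78.5-fold in cerk1. CRK34 (AT4G11530) in the same group was 6.34-fold and 6.19-fold higher.

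Among the 5 genes CRK36 to CRK40, CRK39 (AT4G04540) had 0 counts in both mock libraries, 1606 in WT_flg22 and 954 in cerk1_flg22, and was at least 532-fold and at least 319-fold higher. CRK40 (AT4G04570), the neighbour with the highest mock level per kb of stated length in wild type, was at 35.2, 71.4, 25.3 and 35.2 CPM, 2.03-fold higher in wild type (1.85 to 2.23) and, in cerk1, 1.39-fold (1.24 to 1.56). In this group near-absent and well-expressed genes adjoin, and CRK37 had 4 counts in cerk1_flg22 and 0 elsewhere. CRK41 (AT4G00970), a single gene outside the clusters, was at 5.39, 133, 2.06 and 44.8 CPM. It was 24.7-fold higher in wild type (20.3 to 30.2) and, in cerk1, 21.7-fold (15.9 to 30.5). CRK26 and CRK27 had ratios of 1.49 and 1.66 in wild type, within 2-fold, together with CRK4, CRK8, CRK21, CRK25 and CRK38 on CPM + 1. For the scarce CRK4, CRK8 and CRK38 this holds on CPM + 1 only. By plain ratio CRK4 and CRK8 were each 4.97-fold higher in wild type (1.66 to 20.0), and CRK38 at least 3.97-fold.

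**Figure D3:**
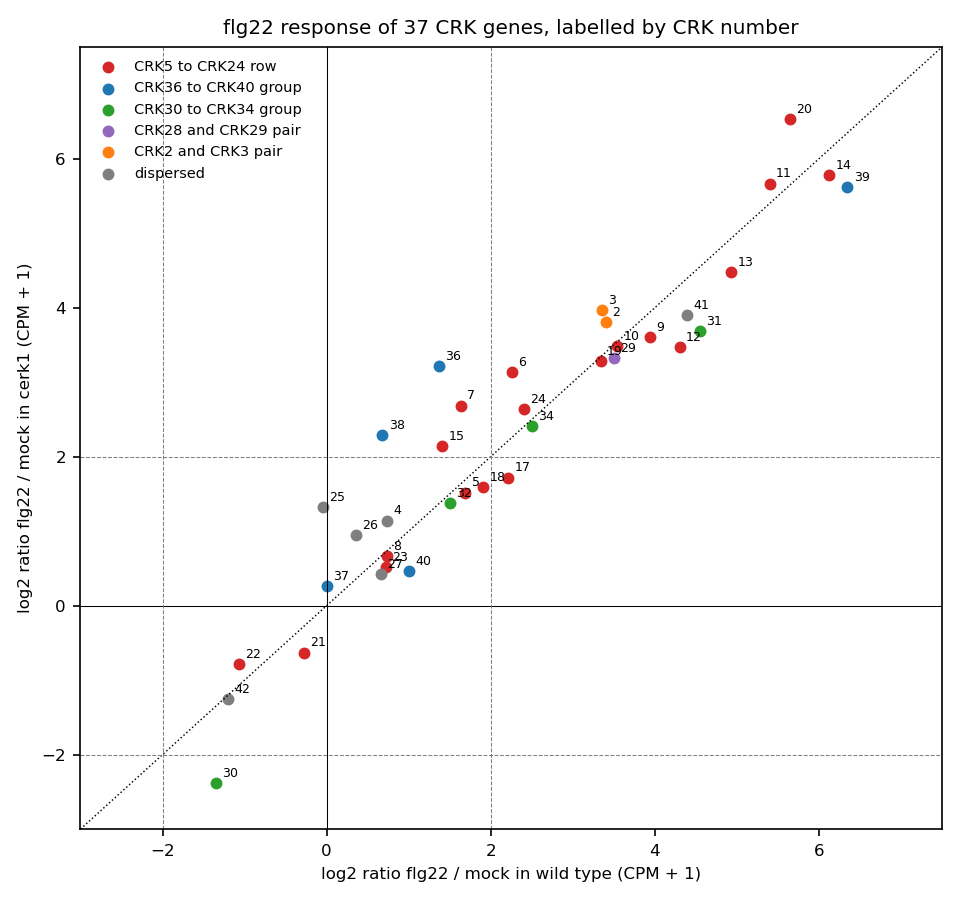
log2 ratio of flg22 over mock (CPM + 1) in wild type (x axis) and cerk1 (y axis) for the 37 listed CRK genes, 1 library per combination, coloured by chromosomal group and labelled by CRK number; dashed lines mark 4-fold and the dotted line equality. Most genes lie in the upper right along the dotted line, CRK36, CRK38, CRK7 and CRK25 lie above it, and CRK30 is lowest, at -1.35 and -2.39.

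Genes with many, few and no copies of TTGAC were each found among those higher after flg22, beside a background in wild type of 6.28% of all genes past 4-fold upward and 5.79% past 2-fold downward. Of the 8 measured genes with at least 3 copies, 5 were at least 4-fold higher in wild type and 0 at least 2-fold lower. Of the 19 with 1 or 2 copies, 9 were at least 4-fold higher and 1 was at least 2-fold lower. Of the 8 with 0 copies, 4 were at least 4-fold higher, namely CRK2, CRK3, CRK12 and CRK13, and 2 were at least 2-fold lower, CRK22 and CRK30. Some genes past 4-fold reached 1 CPM only through a flg22 library and so had to be higher there. They were CRK24 and CRK31 with at least 3 copies, and CRK6, CRK14, CRK20 and CRK39 with 1 or 2. None of the 4 with 0 copies was such a gene, so the classes are not alike in this respect. With so few genes in each class these counts are a description of sequence windows, and neither an association nor binding was tested.

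Other genes of the same pathway and protein class stood beside the family. All 5 partner genes examined (FLS2, BAK1, BIK1, RBOHD and CERK1) were at least 4-fold higher after flg22 in both genotypes, from 5.996-fold for FLS2 to 10.99-fold for CERK1 in wild type. The 13 other DUF26 genes were CRK35, CRK43 to CRK46 and the plasmodesmal PDLP1 to PDLP8, so the list includes CRK genes outside the 41. Of the 13, 9 reached 1 CPM. On CPM + 1, 2 were at least 2-fold higher in wild type and 4 in cerk1, where 13.2% and 15.2% of all genes were. The 2 in wild type were ARCK1 and AT1G70740, which are CRK genes and not PDLP genes. At least 2-fold lower were 0 and 1. For the 41 members the counts at least 2-fold higher were 25 and 27. The 1 gene of the 13 past 4-fold was ARCK1 (AT4G11890), at 0.353, 98.0, 0.653 and 118 CPM. It was 278-fold higher in wild type (135 to 691) and, in cerk1, 180-fold. PDLP3 (AT2G33330) was at 48.7, 25.5, 64.2 and 22.7 CPM, lower after flg22 in both genotypes by ratios of 0.524 and 0.353.

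The comparison of cerk1 with wild type asked how CRK levels differed between the libraries labelled cerk1 and wild type within a treatment. On CPM + 1, 2 CRK genes were at least 2-fold lower in cerk1_mock than in WT_mock, where 4.01% of genes were, and 0 were higher (0.302%), with a median log2 ratio of -0.11 over the 37 genes. They were CRK41, at 2.06 CPM against 5.39, a ratio of 0.382 (0.260 to 0.552), and CRK25 (AT4G05200), at 3.72 against 12 CPM, a ratio of 0.310 (0.236 to 0.404). CRK25 was at 11.6 CPM in WT_flg22 and 10.8 in cerk1_flg22, so cerk1_mock was the low library and the other 3 lay close together. By plain count ratio 3 scarce genes were also at or below 0.5: CRK6, with 0.249 (0.0606 to 0.773), CRK14, with 0.411 (0.144 to 1.04), and CRK15, with 0.499 (0.154 to 1.44). Beside this, 17 root marker genes summed to 233 CPM in wild type and 91.8 in cerk1 under mock, and to 159 and 141 CPM under flg22. Of the 17, 10 were at least 2-fold lower in cerk1_mock than in WT_mock, and 0 were at 0 counts in any library. The 10 shoot markers summed to 27630 to 34210 CPM. The part of the root marker difference in the CRK values was not tested.

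After flg22, on CPM + 1, 3 CRK genes were at least 2-fold lower in cerk1 (0.97% of all genes) and 3 were at least 2-fold higher (0.641%), with a median log2 ratio of -0.14. The lower genes were CRK41, with a ratio of 0.336 (0.312 to 0.363), CRK12, with 0.478 (0.437 to 0.523), and CRK40, with 0.493 (0.449 to 0.540). The last 2 are within 2-fold with library totals as the sole scaling or with CPM + 5, while CRK41 stays below. The higher genes were CRK36, 4.86-fold (3.62 to 6.62), CRK38 (AT4G04510), 6.45-fold (3.49 to 13.0) from 12 and 77 counts, and CRK7, 2.59-fold (1.79 to 3.79). CRK38 was at 0.601 CPM in WT_flg22 and 3.88 in cerk1_flg22 and at 0 counts in both mock libraries. It reached 1 CPM only through cerk1_flg22, so it could enter the count of 3 only as a higher gene. With CPM + 5, CRK7 and CRK38 are within 2-fold and CRK36 remains. Each of these ratios compares 1 library with 1 library, so the spread between seedling samples is not known.

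The comparison of the lines asked whether the 3 altered CERK1 forms changed the untreated transcriptome. All 41 CRK genes were in this table and 37 passed the count filter among 21274 genes. No CRK gene passed an adjusted p of 0.05 in edgeR's quasi-likelihood test with Benjamini-Hochberg adjustment over all genes, in any of the 6 comparisons. Background calls were equally rare: over CERK1_WT, 0% of genes were higher and 0.0047% lower in CERK1_3A, 0.0188% and 0.0094% in CERK1_3D, and 0.0047% and 0% in CERK1_3E. Between the altered forms the shares were 0.0188% and 0.0047% for CERK1_3D over CERK1_3A, 0.0094% and 0% for CERK1_3E over CERK1_3A, and 0.0094% and 0.0047% for CERK1_3E over CERK1_3D. By unadjusted p under 0.05, 0 CRK genes were higher and 2 lower in CERK1_3A over CERK1_WT (1.56% and 1.51% of all genes), 2 and 1 in CERK1_3D (1.55% and 1.32%), and 5 and 0 in CERK1_3E (1.78% and 1.58%). The numbers were 4 and 2 for CERK1_3D over CERK1_3A (3.08% and 2.7%), 3 and 0 for CERK1_3E over CERK1_3A (1.12% and 1.33%), and 4 and 1 for CERK1_3E over CERK1_3D (1.9% and 2.13%). The higher counts for CERK1_3E, over each other line, include CRK15. It passed the count filter through CERK1_3E alone and so had to be higher there. Single libraries moved these counts: in CERK1_3A over CERK1_WT the higher genes numbered 3 without CERK1_WT replicate 1 and 4 without CERK1_3A replicate 2, and in CERK1_3D they numbered 6 without CERK1_WT replicate 1 and 0 without CERK1_WT replicate 2. The CERK1 transcript itself measured 56.8 ± 6.08 CPM (SD, n = 2) in the CERK1_WT line, 76.7 ± 4.84 in 3A, 118 ± 4.16 in 3D and 121 ± 10.6 in 3E, and passed the test in CERK1_3D (edgeR adjusted p 0.0451) but not in CERK1_3E (0.0592). Its part in the CRK values was not tested.

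Summed CRK levels were 343 to 438 CPM in the 8 libraries. Of the 37 tested genes, 22 differed by over 2-fold between their highest and lowest library, among them CRK8, CRK31 and CRK32, which stayed under 1 CPM. The same share over all genes was not computed, so this count is not read as a trait of the family. The 17 root markers summed to 156 to 239 CPM and the 10 shoot markers to 29440 to 45120 CPM in these libraries. CRK18 (AT4G23260) in CERK1_3A had the smallest unadjusted p over CERK1_WT. Its levels were 28.2 and 17.9 CPM in CERK1_WT, 9.75 and 12.8 in CERK1_3A, 26.8 and 26.8 in CERK1_3D, and 19.7 and 30.8 in CERK1_3E. Both CERK1_3A libraries were below the other 6. The log2 fold change of CERK1_3A over CERK1_WT was -1.03 ± 0.27 (SE), with an adjusted p of 0.9999 in edgeR, and that of CERK1_3D over CERK1_3A was 1.251 ± 0.27, with an adjusted p of 0.622. DESeq2's Wald test put CRK18 past the threshold in 2 comparisons, CERK1_3D over CERK1_3A (adjusted p 0.000584) and CERK1_3E over CERK1_3A (adjusted p 0.00312). Its row has a stated length 3.98 times the annotated exons, so the counts may include sequence outside CRK18. CRK21 was also lower in both CERK1_3A libraries, at 39.9 and 40.6 CPM against 45.3 to 51.8 in CERK1_WT, with a log2 fold change of -0.27 ± 0.10, and CRK5 was at 5.05 and 3.04 CPM against 2.58 and 1.65, a log2 fold change of 0.93 ± 0.41 (edgeR adjusted p 0.9999 for both). Without CERK1_WT replicate 1 the values of CRK18 and CRK21 were -0.67 and -0.17, and without CERK1_3A replicate 1 that of CRK5 was 0.52. The rows of CRK21 and CRK5 also have over-long stated lengths, 1.83 and 1.79 times their annotated exons.

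In CERK1_3D the genes of smallest unadjusted p were CRK29, CRK13 and CRK36, none past the adjusted threshold (edgeR adjusted p 0.9999). CRK29 was at 20.6 and 19.8 CPM in CERK1_3D and at 22.8 to 25.4 in the other 6 libraries, a log2 fold change over CERK1_WT of -0.26 ± 0.10. CRK13 was at 4.24 and 2.45 CPM in CERK1_3D, against 1.99 and 1.62 in CERK1_WT, a log2 fold change of 0.89 ± 0.35. The stated lengths of the CRK29 and CRK13 rows are 17.3 and 3.34 times their annotated exons, so their counts may include sequence outside these genes. CRK36 was at 6.39 and 4.1 CPM, against 3.59 and 1.92, a log2 fold change of 0.92 ± 0.38. The libraries of CERK1_3D and CERK1_WT did not overlap for these 3 genes, as for 12.7% of all genes in the higher and 12.6% in the lower direction. Without CERK1_3D replicate 1 the log2 values of CRK13 and CRK36 were 0.44 and 0.57, and without CERK1_WT replicate 2 that of CRK36 was 0.55; without CERK1_WT replicate 1 it was 1.45. All 5 genes CRK36 to CRK40 had positive log2 fold changes in each of the 3 altered lines, which share the CERK1_WT libraries, with a median of 0.92 in CERK1_3D, 0.50 in CERK1_3E and 0.03 in CERK1_3A, where the median over all genes was 0.00.

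In CERK1_3E the smallest unadjusted p was that of CRK15 (AT4G23230), which had 51 and 14 counts in the CERK1_3E libraries and 0 in the other 6. It was at 1.36 and 0.382 CPM, at least 11.4-fold above CERK1_WT and at least 10.7-fold above CERK1_3A and CERK1_3D, against a floor of 3 counts per library. From CERK1_3E replicate 2 alone these bounds are 5.03-fold over CERK1_WT and 4.71-fold and 4.69-fold over CERK1_3A and CERK1_3D. It passed the count filter through CERK1_3E alone, so that it had to be higher there, and it did not enter the test without replicate 1; its edgeR adjusted p was 0.9997. CRK4 was at 7.44 and 14.6 CPM in CERK1_3E against 5.29 and 5.38 in CERK1_WT, a log2 fold change of 1.05 ± 0.36. CRK8 (AT4G23160) was at 0.691 and 0.819 CPM against 0.354 and 0.135, a log2 fold change of 1.59 ± 0.58. Without CERK1_3E replicate 2 the value of CRK4 was 0.48, and that of CRK8 was 2.45 without CERK1_WT replicate 1 and 1.09 without replicate 2. In both cases the CERK1_3E libraries lay above those of CERK1_WT, and the edgeR adjusted p was 0.9997.

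**Figure D4:**
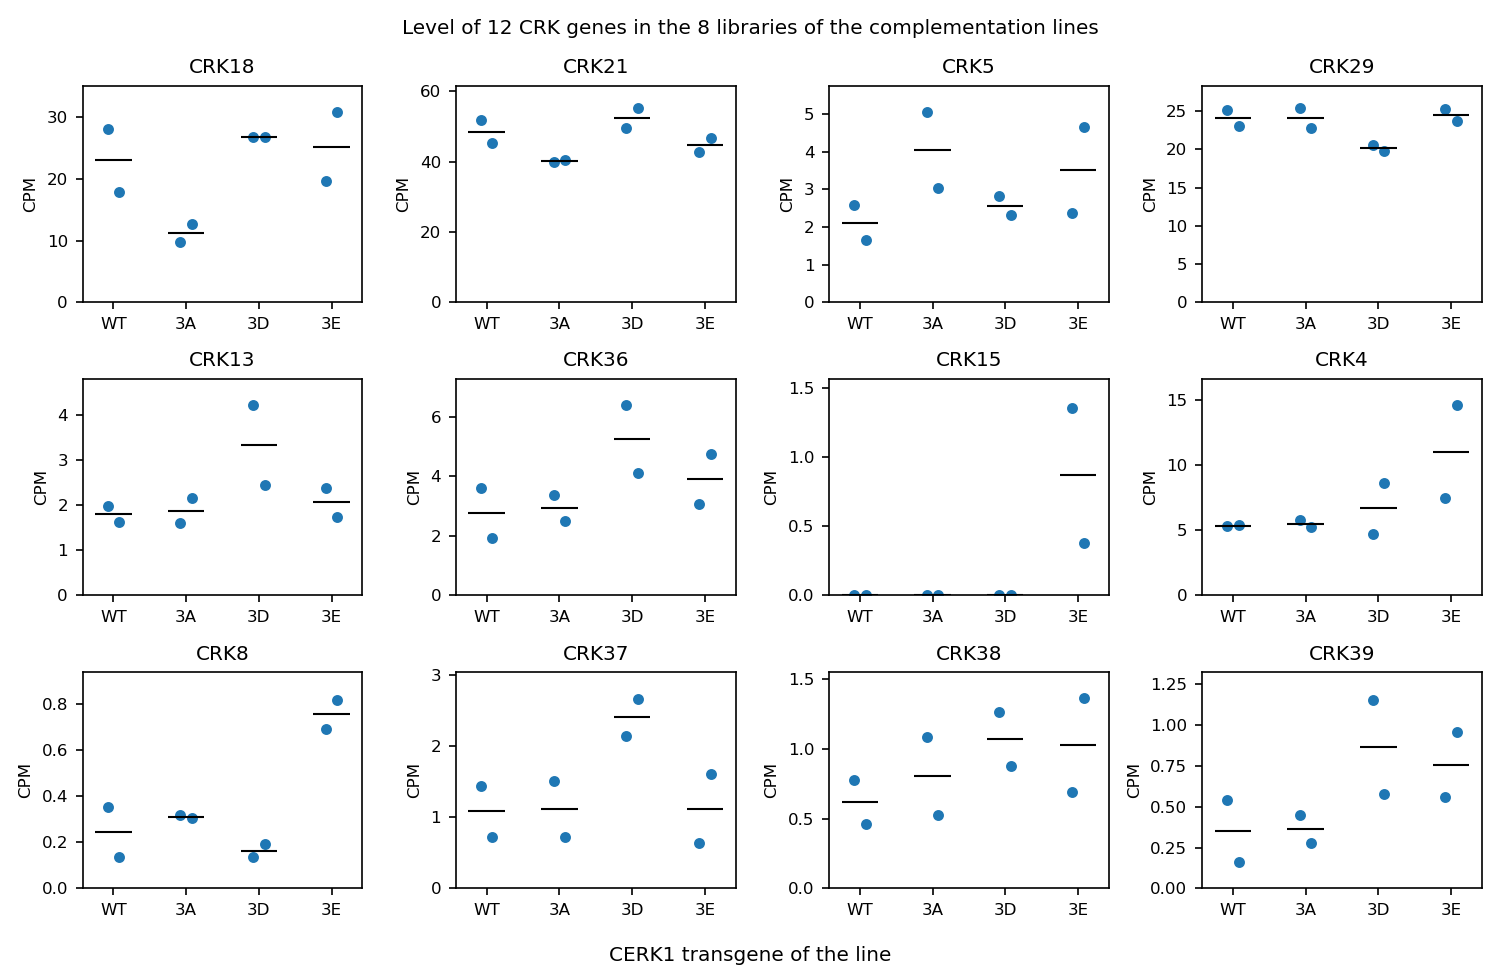
CPM of 12 CRK genes in each of the 8 libraries of the untreated lines (points; black bars are means of 2 libraries; each panel has its own axis from 0): the 3 with the smallest unadjusted p against CERK1_WT in each altered line, and CRK37, CRK38 and CRK39. CRK18 is low in both CERK1_3A libraries and CRK15 is above 0 in the CERK1_3E libraries, at 1.36 and 0.382.

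Over CERK1_WT, positive values outnumbered negative ones with all libraries in the fit, but not for CERK1_3A without single libraries. In CERK1_3E 31 of 37 fold changes were above 0, with a median log2 of 0.22 against 0.00 over all genes, in CERK1_3D 26 with a median of 0.18, and in CERK1_3A 25 with a median of 0.04. Both CERK1_3E libraries were above both CERK1_WT libraries for 14 CRK genes (37.8%), where 16.1% of all genes were, and the corresponding numbers were 11 (29.7%, against 12.7%) in CERK1_3D and 4 (10.8%, against 16.3%) in CERK1_3A. In the lower direction they were 2 (5.41%, against 16.7%) in CERK1_3E, 3 (8.11%, against 12.6%) in CERK1_3D and 4 (10.8%, against 15.9%) in CERK1_3A. For CERK1_3E the 31 and the 14 include CRK15, which passed the count filter through CERK1_3E alone and so had to be higher there. The 3 comparisons over CERK1_WT share the same CERK1_WT libraries. Replicate 2 of CERK1_WT was above replicate 1 for 6 of the 37 genes, equal at 0 counts for CRK15 and below it for the rest. The median log2 difference was -0.19. Without CERK1_WT replicate 1 the median for CERK1_3E was 0.52 and 10 CRK genes were higher by unadjusted p; without replicate 2 the median was 0.13 and 1 was higher. Without CERK1_3E replicate 2 the number was also 1. For CERK1_3D the median was 0.31 without CERK1_WT replicate 1 and 0.01 without replicate 2, and for CERK1_3A it was 0.36 and -0.06. The positive values in CERK1_3A, 25 of 37 with all libraries, numbered 14 without CERK1_WT replicate 2 and 15 without CERK1_3A replicate 1, where the median was -0.03. In CERK1_3E they ranged from 25 to 32 and in CERK1_3D from 20 to 30 over the left-out libraries. The 18 genes at least 4-fold higher after flg22 in wild type had median log2 values of 0.13, 0.20 and 0.28 in CERK1_3A, CERK1_3D and CERK1_3E, and the other 19 had 0.00, 0.14 and 0.21. CRK15, at 0 counts in CERK1_WT, CERK1_3A and CERK1_3D, entered the CERK1_3A and CERK1_3D medians as 0. In CERK1_3A it is itself the median of the other 19, so that 0.00 is not a measured change.

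**Figure D5:**
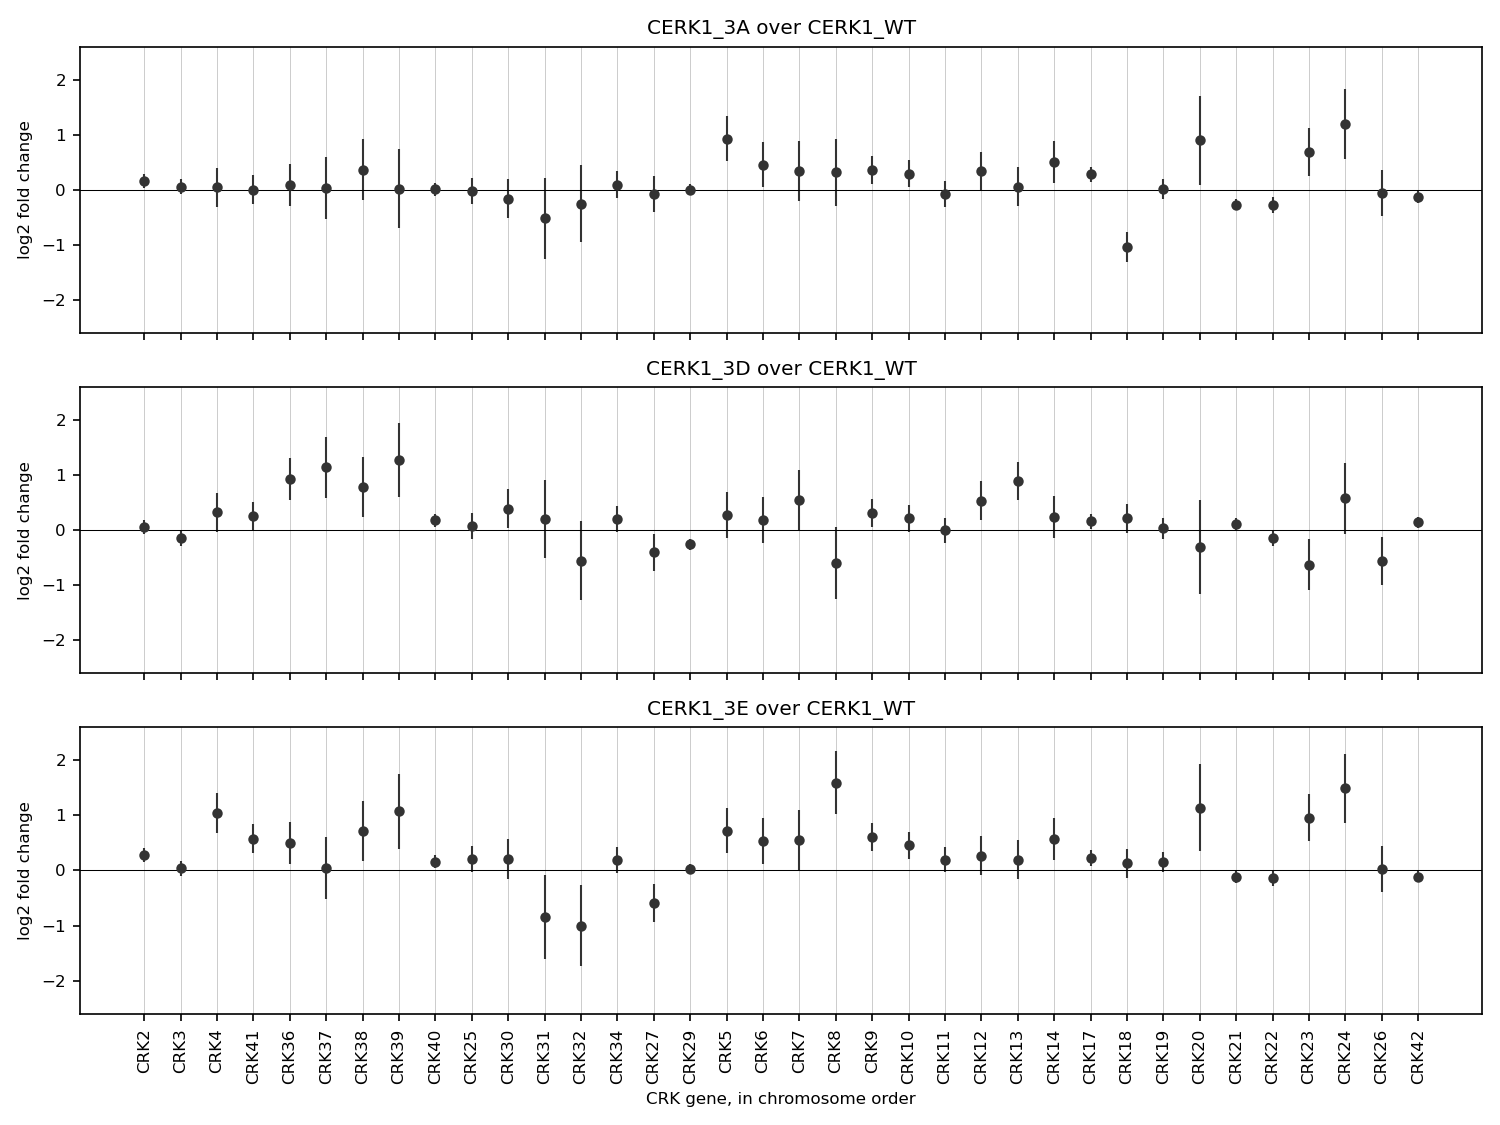
log2 fold change ± SE over CERK1_WT for 36 CRK genes in CERK1_3A (top), CERK1_3D (middle) and CERK1_3E (bottom), from edgeR on all 8 libraries, in chromosome order; CRK15, at 0 counts in CERK1_WT, is left out. CRK18 stands lowest in CERK1_3A at -1.03, and CRK8 highest in CERK1_3E at 1.59.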

How the data were processed

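Arabidopsis seedling RNA was sequenced in 12 libraries. The deposited tables hold whole-number counts per gene, which the authors did not normalise, and all 12 sample columns were used. The build was TAIR10 per the submitters' processing notes; aligner, counter, strand setting and filters are not given in the sources used here. Gene names, order, exon lengths and promoters were looked up by gene identifier in RefSeq TAIR10.1, and all 41 identifiers matched. Groups came from sample titles.

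For the flg22 experiment, TMM-scaled CPM were computed in edgeR 4.0.16 (R 4.3.3), genes with 1 CPM in any library were kept, and ratios were formed on CPM + 1, with no test at 1 library per combination. Single-gene ratios are scaled count ratios with 95% exact binomial intervals. The lines were tested with edgeR's quasi-likelihood method over all 8 libraries (TMM, filterByExpr, group as the sole term, two-sided, 6 comparisons, 4 residual degrees of freedom, common biological coefficient of variation 0.170), with Benjamini-Hochberg adjustment. The code was tested on simulated data.

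The members and lists were chosen with earlier results of these data known. Named in full are the 12 members with the largest wild-type flg22 ratio, those at least 2-fold lower with flg22, those differing at least 2-fold between genotypes, the 3 with the smallest unadjusted p for each altered line over CERK1_WT, and members with a published immune or oxidative role. Others were named afterwards to describe neighbours. Alternatives were other added values, scalings, filters, DESeq2 1.42.0, a replicate block, fewer libraries in the fit, and, added after seeing the data, unadjusted counts under each of these.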

Additional observations from a re-analysis of the deposited data

Results flagged for a closer look

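CRK25 was singled out because the signs of its log2 ratios of flg22 over mock (CPM + 1) differ: -0.04 in wild type and 1.32 in cerk1, a difference of 1.36 that was not tested, with 1 library per combination. In wild type the count ratio of 0.968 (0.805 to 1.17) has an interval that spans 1, so no direction was resolved there. In cerk1 it was 2.90 (2.21 to 3.83), and the library that stood apart was cerk1_mock, at 3.72 CPM. In that library root markers were also lowest, at 91.8 CPM summed over 17 genes; their part in the result was not tested.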

How the results depend on the processing

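With CPM + 5 the members at least 4-fold higher with flg22 numbered 13 in cerk1 in place of 21, and 15 in wild type in place of 18; with CPM + 0.1 both were 23. CPM + 5 left 0 members at least 4-fold lower in cerk1, 0 at least 2-fold lower in cerk1_mock than in WT_mock, and 1 lower and 1 higher in cerk1_flg22 than in WT_flg22. CPM + 0.1 gave 4 lower in cerk1_mock, and library totals alone gave 1 lower in cerk1_flg22. That scaling moved the median log2 ratio of all genes to -0.28 in wild type, -0.17 in cerk1 and 0.12 between genotypes under flg22, while 31 and 33 of the 37 members kept ratios above 0 with flg22. The median member log2 ratio with flg22 ranged from 1.13 to 2.91 in wild type and from 1.42 to 3.35 in cerk1 across added values of 5 and 0.1. The causes were not tested beyond these constructions.

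In the lines, DESeq2 called 1 member, CRK18, in CERK1_3D over CERK1_3A and 1 in CERK1_3E over CERK1_3A. Every edgeR alternative called 0 in all 6 comparisons, including the replicate block and each left-out library, where the lone library of a line is assumed to vary like the other lines. Between lines, replicate differences correlated across genes with r from -0.001 to 0.228, so the replicate numbers were not taken to pair libraries. No direction of a called result was reversed. Depth limits the 15 listed members with under 10 counts in at least 1 flg22-experiment library: CRK4, CRK6, CRK7, CRK8, CRK14, CRK15, CRK20, CRK23, CRK24, CRK31, CRK32, CRK36, CRK37, CRK38 and CRK39.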
